A study of Haemaphysalis flava with 2 samples.

Results

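Lysosomal hydrolases, the receptors that sort them and membrane proteins of the lysosome were examined in RNA of the salivary glands of Haemaphysalis flava, a hard tick that feeds on blood. Members were chosen by their protein descriptions alone, by words such as prosaposin, mannose-6-phosphate, Niemann-Pick, hexosaminidase, galactosidase, mannosidase, sulfatase, acid phosphatase, sphingomyelin phosphodiesterase and lysosomal, leaving out cathepsins and legumains. The words found 93 of 54357 assembled contigs. A contig is an assembled transcript or part of one, and the 93 contigs name 64 best-matching proteins, of which most come from other ticks (51 contigs match Rhipicephalus pulchellus and 31 match Ixodes scapularis). Polyadenylated RNA was sequenced from engorged ticks and from semi-engorged ticks, with 50 ticks per stage and 100 glands in total named in the series text, and no treatment, strain or age is given in the labels. Each stage has 1 library, taken here as a pool of ticks, so no difference has a replicate check, no p-value was computed, and every value describes these libraries.

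The lysosome is the acidic compartment in which cells digest proteins, lipids and glycans taken up from outside or from their own cytoplasm. In mammals most of its soluble hydrolases receive a mannose-6-phosphate tag in the Golgi apparatus and are carried onward by mannose-6-phosphate receptors, while saposins present lipids to the enzymes and the Niemann-Pick C1 protein moves cholesterol out of the compartment. Hard ticks digest blood inside gut cells with the same enzyme families, and their salivary glands are known to break down after the blood meal ends.

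The libraries held 57892372 engorged and 54039984 semi-engorged reads. CPM scales read counts to a library of 1000000 reads, and RPKM also divides by contig length, so levels of different contigs are set side by side in RPKM only. Contigs with a sum of 20 or more reads in the 2 libraries were tested. The call needed a log2 fold of at least 1 in size, taken on CPM with 1 added to each value, so the folds of low contigs come out too small. A ratio is one of plain CPM, and the range after it is its exact Clopper-Pearson 95% interval, which covers counting error only. Contigs of the salivary gland marker list (380 contigs named salivary, lipocalin, glycine-rich, basic tail or cement) took 1.56% of the engorged reads but 3.67% of the semi-engorged ones. Of its 376 tested contigs, 72 (19.1%) were called for the engorged stage and 185 (49.2%) for the semi-engorged stage. Log2 folds in this list ran from -9.86 to 10.66. Among all tested contigs the called shares were 13.0% and 15.5%. The midgut list of 9 contigs summed to 141 and 153 CPM. Of its 6 tested contigs, 2 (33.3%) were called for the engorged stage and 1 (16.7%) for the semi-engorged stage, with a median log2 fold of 0.097. Of these 6, 4 lay on the engorged side and 2 on the semi-engorged side. The Bm86-like contigs of the list, named for a protein of gut cells, had too few reads to be tested. They were at 1 and 2 engorged reads against 17 and 11. Haemocyte and fat body markers, 37 contigs that were mostly vitellogenins, summed to 2071 and 2060 CPM. Of 31 tested, 3 (9.68%) were called for the engorged stage and 0 for the semi-engorged stage. Summed CPM was 3090 and 2656 on 94 muscle contigs, and 846 and 1135 on 49 nerve contigs. Of 87 tested muscle contigs, 13 (14.9%) were called for the engorged stage and 11 (12.6%) for the semi-engorged stage. For 45 tested nerve contigs the counts were 5 (11.1%) and 12 (26.7%). In such bulk tissue, fewer cells of a type and less RNA per cell cannot be told apart.

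In the engorged library the members took 0.874% of all reads (Wilson 95% interval 0.872% to 0.876%). The semi-engorged share was 0.228% (0.227% to 0.229%), so the ratio was 3.84, or 1.501 with summed RPKM in place of reads. That excess sat in 3 contigs, 1 of prosaposin and 2 of a mannose-6-phosphate receptor, which held 82.6% of the members' engorged reads and 10.1% of their semi-engorged reads. Without these 3, a choice made after their values were seen, the order turned: the remaining 90 contigs took 0.152% and 0.205% of the reads, a ratio of 0.744. Of 89 tested members, 13 (14.6%) were higher in the engorged library, where 13.0% of all tested and 15.4% of described tested contigs were. In the semi-engorged library 22 members (24.7%) were higher, against 15.5% of all tested and 16.6% of described tested contigs, and 54 members were in neither class. With library totals that skip the 50 most abundant contigs of either library the 2 counts were 22 and 21, so the order of the counts depends on the scaling. The median log2 fold was -0.23, beside -0.049 for all tested contigs and 0.012 for those with a description.

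**Figure D1:**
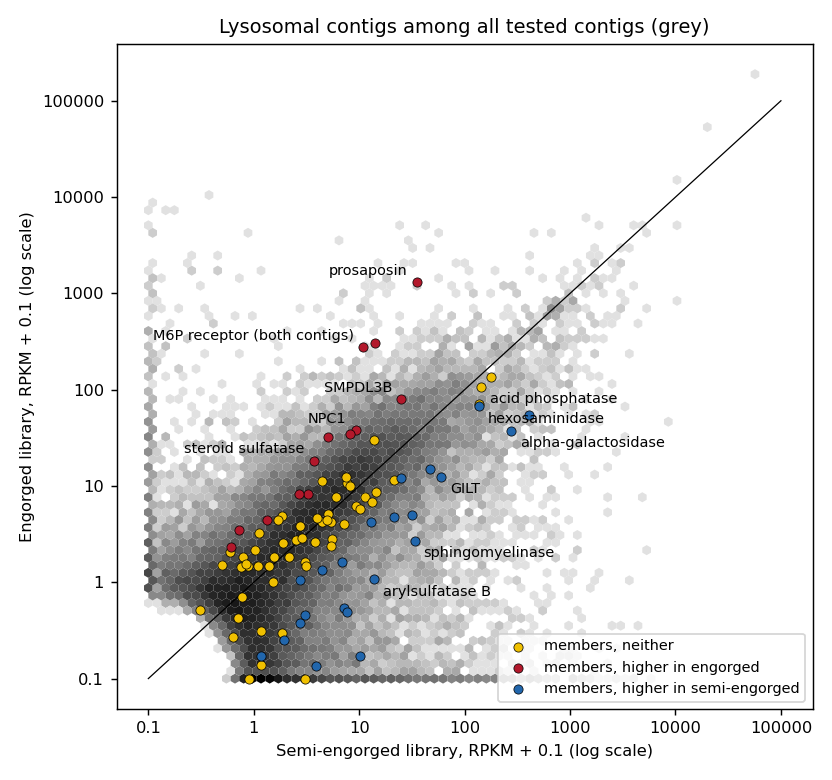
RPKM + 0.1 of each tested contig in the semi-engorged library (x axis) and the engorged library (y axis), both on log scales, with all tested contigs in grey (darker where there are more) and members in red, blue or yellow by call. The line marks equal levels; prosaposin at 1307 against 35.2 RPKM and both receptor contigs stand far above it, and alpha-galactosidase stands below it.

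**Figure D2:**
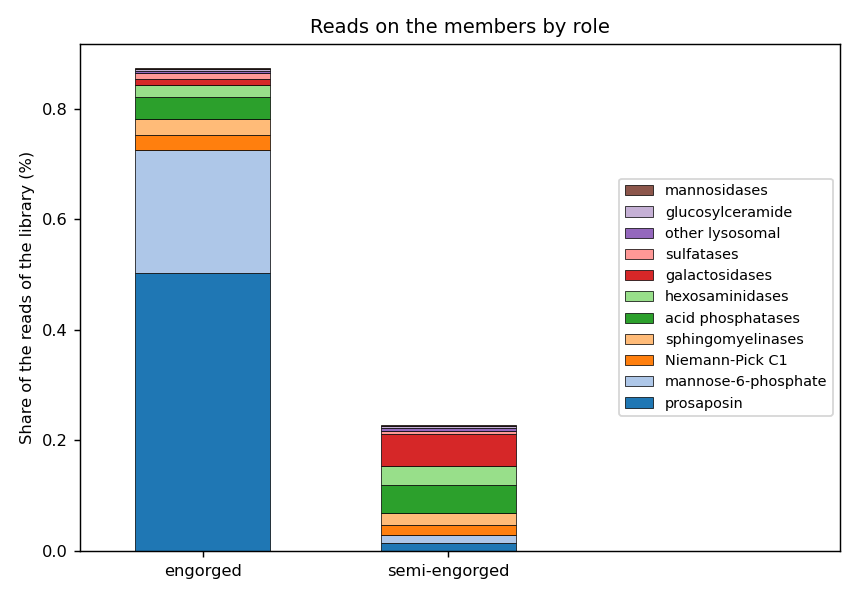
Share of each library's reads, in percent, on the members, stacked by role, with 1 library per bar. Prosaposin makes up 0.504% of the engorged reads but 0.0136% of the semi-engorged ones, and galactosidases make up 0.0116% and 0.0568%.

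Prosaposin is the precursor that lysosomal proteases cut into saposins, small helpers of sphingolipid breakdown. Its main contig, contig_203, is 3856 bases long and had 291666 engorged reads against 7341 semi-engorged reads. In RPKM the levels were 1307 and 35.2, and the CPM ratio was 37.1 (95% interval 36.2 to 37.96). By RPKM it was the contig of rank 78 in the engorged library and of rank 3239 in the semi-engorged library. By reads, which grow with contig length, the ranks were 12 and 1084. The short prosaposin contig_13636 had 104 against 18 reads, a ratio of 5.39 (3.25 to 9.46), and its call was lost with the median ratio of the libraries set to 0 (log2 fold 0.96). Both prosaposin contigs name the same protein of Rhipicephalus pulchellus.

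The receptor contigs followed prosaposin in engorged RPKM and in size of fold. Both are described as a mannose-6-phosphate/insulin receptor type II, the large receptor that in mammals carries tagged hydrolases to endosomes and also binds insulin-like growth factor II. The longer one, contig_790 (4914 bases), had 87781 engorged and 3721 semi-engorged reads, which is 309 and 14.01 RPKM and a ratio of 22.02 (21.3 to 22.8). Beside it, contig_113 (2382 bases) had 38293 and 1399 reads, 278 and 10.9 RPKM, and a ratio of 25.5 (24.2 to 27.0). The like levels per length of both receptor contigs within each library are a description; whether they belong to 1 gene was not tested. A contig of the other receptor type, the small cation-dependent receptor (contig_3184), had 607 against 258 reads and a log2 fold of 0.99, just short of the call. Not all names in this class are receptors: the 2 contigs of mannose-6-phosphate isomerase, a cytosolic enzyme of sugar phosphate metabolism, had 1499 reads in all against 2848 and were 2.04-fold higher in the semi-engorged library (1.91 to 2.17).

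Among Niemann-Pick C1 contigs, 3 of 6 were called for the engorged stage and 2 for the semi-engorged stage. The contig of full description, contig_4918 (4722 bases), had 10326 reads against 2335, 37.8 against 9.15 RPKM, and a ratio of 4.13 (3.95 to 4.32). A second contig of that description, contig_9613, names a different protein of the same tick and had 2655 against 586 reads, a ratio of 4.23 (3.87 to 4.63). The contig_8962 of a Niemann-Pick C1 domain protein had 805 against 237 reads, a ratio of 3.17 (2.74 to 3.68). On the other side, the domain protein contig_5426 had 2082 engorged reads against 6123 and was 3.15-fold higher in the semi-engorged library (3.0 to 3.31). Another domain protein, contig_41529, had 18 against 323 reads (0.39 against 7.57 RPKM). Each of the domain proteins names a different best match.

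**Figure D3:**
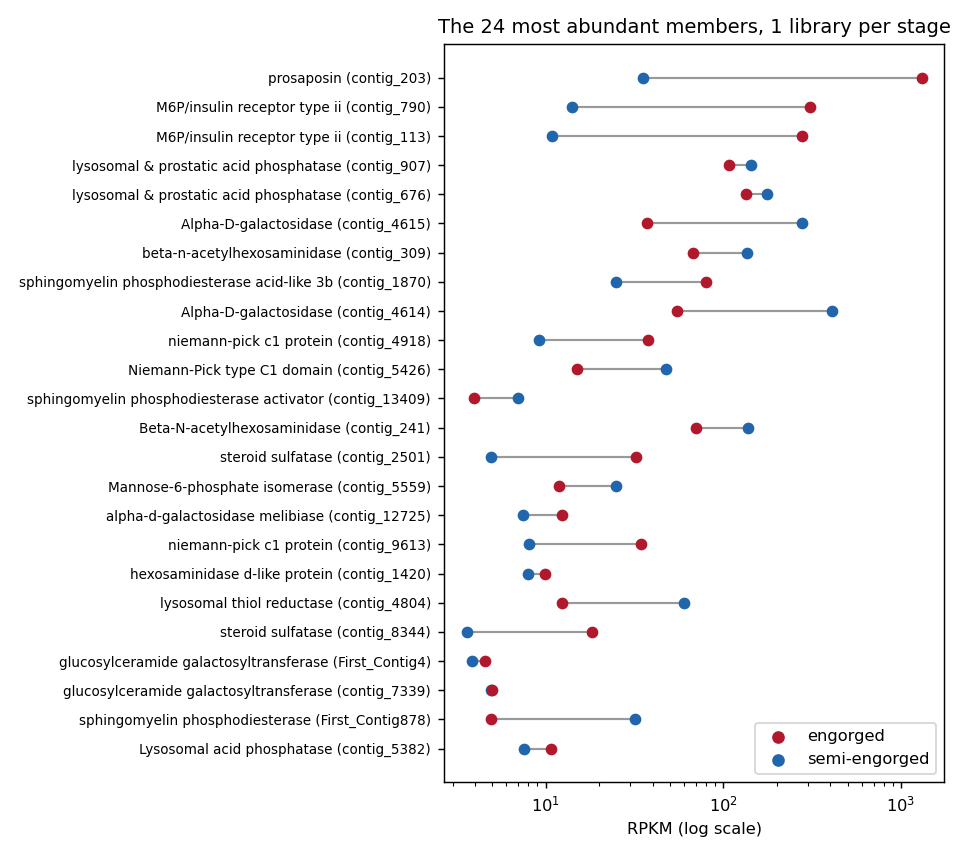
RPKM on a log scale in the engorged (red) and semi-engorged (blue) library for the 24 members of highest mean CPM, from top to bottom, with the description and contig number beside each row. Prosaposin and the receptor contigs lie far to the right in the engorged library, alpha-galactosidase in the semi-engorged library (410 and 278 RPKM), and the 2 leading acid phosphatases lie close in both.

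Enzymes that act on sphingomyelin, a membrane lipid, went both ways by kind. The 5 contigs described only as sphingomyelin phosphodiesterase, the name of the enzyme that cuts the lipid to ceramide, were all on the semi-engorged side, with log2 folds of -2.76 to -0.89, and 4 of them passed the call. Together the 5 contigs had 838 engorged and 3553 semi-engorged reads and were 4.54-fold higher in the semi-engorged library (4.21 to 4.90). They name only 2 best-matching proteins, and the 4 contigs named next share 1 best match, so the 5 are not separate measurements. By semi-engorged reads First_Contig878 led them with 197 against 1183, followed by contig_13825 with 222 against 933, contig_4714, which missed the call, with 356 against 663, and contig_17734 with 55 against 662. By contrast, the contig with most reads in the class, contig_1870, had 13127 engorged and 3805 semi-engorged reads and a ratio of 3.22 (3.11 to 3.34). It is described as acid-like 3b, a relative that in mammals sits at the cell surface. The contig of sphingomyelin phosphodiesterase 4, a neutral enzyme of the endoplasmic reticulum and nuclear envelope in mammals, had 354 against 75 reads and a ratio of 4.41 (3.43 to 5.73) (contig_10208). The 2 sphingomyelinase D contigs, whose best matches include a spider venom enzyme, had 158 against 421 reads in all. The 9858-base contig_13409, described as a sphingomyelin phosphodiesterase activator, had 2269 against 3729 reads and a log2 fold of -0.80.

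Galactosidases, which remove galactose from glycolipids and glycoproteins, were the most uneven of the glycosidases. None of 10 was called higher in the engorged library and 5 were called higher in the semi-engorged library. The alpha-galactosidase contigs contig_4615 and contig_4614 share a best match. The first had 2517 against 17663 reads (37.0 against 278 RPKM) and was 7.52-fold higher in the semi-engorged library (7.21 to 7.84). The second had 1546 against 10749 reads (55.1 against 410 RPKM) and a ratio of 7.45 (7.06 to 7.86), so both folds agree within their counting intervals. At 410 RPKM contig_4614 had the highest level per length of any member in the semi-engorged library. An alpha-galactosidase contig with another best match, contig_12725, went to the other side with 2235 against 1251 reads and a log2 fold of 0.71. Beta-galactosidase contigs were low, at 329 reads in all against 820 over 6 contigs, led by contig_28412 with 106 against 442. Of the 6, 5 lay on the semi-engorged side. The other, contig_29058, shares the best match of contig_28412 and had 91 against 24 reads, a ratio of 3.54 (2.24 to 5.80).

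**Figure D4:**
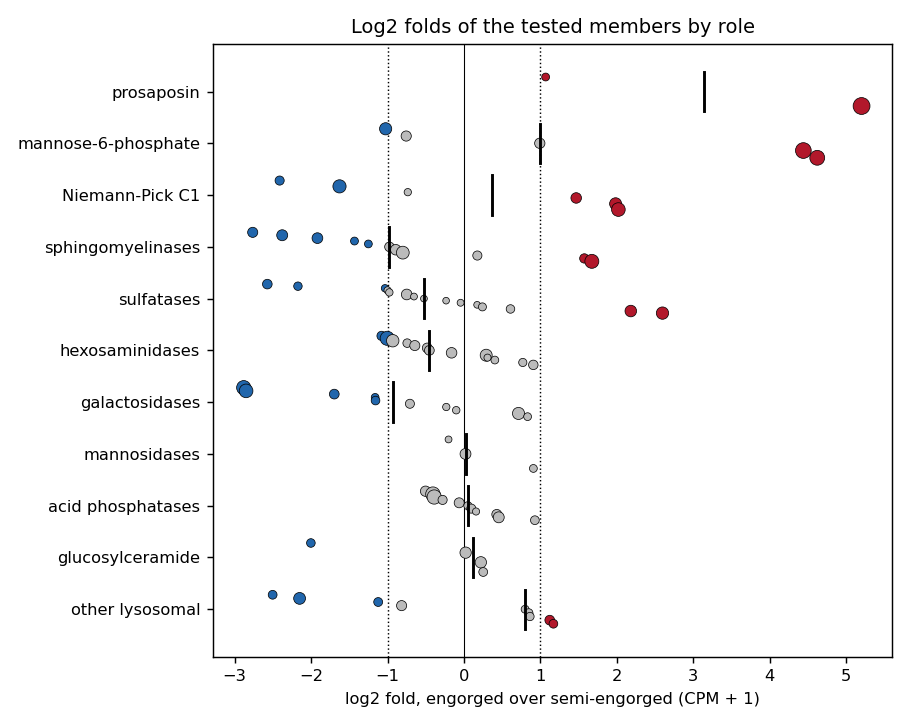
Log2 fold of engorged over semi-engorged CPM + 1 (x axis) for each tested member, grouped by role, with larger points for higher mean CPM, a bar at the median of each role and dotted lines at the call of 1 in either direction. Prosaposin and the receptors reach 5.20 and 4.62, galactosidases reach -2.88, and all 11 acid phosphatases stay between the dotted lines.

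Hexosaminidases, which take amino sugars from gangliosides and, in arthropods, from chitin fragments, differed less. The leading contig, contig_309, had 6508 against 12240 reads, 67.2 against 135 RPKM, and was 2.01-fold higher in the semi-engorged library (1.95 to 2.08). Its log2 fold of -1.004 lies at the call and fell short of it with 2 of 4 other scalings. Similar levels per length were found for contig_241, with 1555 against 2819 reads, 70.5 against 137 RPKM and a log2 fold of -0.93. Over the whole class 0 of 13 tested contigs were called for the engorged stage and 2 for the semi-engorged stage. The 2 contigs of hexosaminidase D, which in mammals lies in the nucleus and cytoplasm, had log2 folds of 0.29 (contig_1420) and 0.91 (contig_20311). A contig named only hexosaminidase domain-containing protein, contig_20613, was at -0.16. Of 10 tested beta-N-acetylhexosaminidase contigs, 3 lay on the engorged side and 7 on the semi-engorged side. Of the 3, contig_26615 (123 against 45 reads) and contig_21612 (74 against 39) share the best match of contig_309, and contig_30660 had 35 against 16. Mannosidases were scarce: of 5 contigs 3 were tested and 0 were called, and the most abundant, contig_12673, had 683 against 628 reads. The lysosomal alpha-mannosidase contig_15003 had 97 against 23 reads, a ratio of 3.94 (2.48 to 6.50), and its log2 fold of 0.91 stayed under the call. It passed the call with totals without the 50 most abundant contigs of either library (1.202) and with a pseudocount of 0.1 CPM (1.76).

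Sulfatases, which take sulfate groups off glycans and lipids, split by enzyme. Arylsulfatase B removes sulfate from dermatan and chondroitin sulfate. Of its 12 contigs 11 were tested, with 0 calls for the engorged stage and 3 for the semi-engorged stage, and the reads were 240 against 1032 in all. The 5 contigs that share 1 best match were all on the semi-engorged side and had 44 against 807 reads together, 19.6-fold higher in the semi-engorged library (14.5 to 27.3). Within them contig_19924 had 35 against 462 reads and contig_47797 had 2 against 198, a ratio of 106 (29.0 to 882). Among arylsulfatase contigs, 3 had 0 engorged reads (contig_52257, contig_52069 and contig_53936, with 54, 31 and 13 semi-engorged reads). They carry contig numbers of 50000 and above, where the median log2 fold of all tested contigs was -0.77. The highest arylsulfatase on the engorged side, contig_18566, had 148 against 72 reads and a log2 fold of 0.61.

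Steroid sulfatase, an enzyme of the endoplasmic reticulum membrane rather than the lysosome in mammals, had a different pattern. Its 2 contigs share a best match and were both higher in the engorged library. The first, contig_2501, had 3684 against 523 reads (32.4 against 4.93 RPKM) and a ratio of 6.58 (6.0 to 7.22). The second, contig_8344, had 1927 against 354 reads (18.2 against 3.59 RPKM) and a ratio of 5.08 (4.53 to 5.71). The sulfatase-modifying factor contig_9757, which activates sulfatases in the endoplasmic reticulum, had 422 against 699 reads and a log2 fold of -0.75.

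Acid phosphatases, which take phosphate from many substrates at low pH, lay close together in the libraries. Of 11 contigs 0 were called in either direction, and log2 folds ran from -0.50 to 0.93. The leading contigs, both described as lysosomal and prostatic acid phosphatase with the same best match, had 11215 against 13895 reads (contig_907, 108 against 143 RPKM) and 9616 against 11772 (contig_676, 134 against 176 RPKM). Their ratios were 1.33 (1.29 to 1.36) and 1.31 (1.28 to 1.35) in favour of the semi-engorged library. Lysosomal acid phosphatase contig_5382, whose best match is the protein of the related tick Haemaphysalis longicornis, had 838 against 556 reads and a log2 fold of 0.46. The 6 purple acid phosphatase contigs, iron-containing enzymes, had 1236 against 918 reads in all. At 134 RPKM contig_676 had the highest engorged level after prosaposin and the receptors.

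The remaining lysosomal names covered 3 functions. Gamma-interferon inducible lysosomal thiol reductase opens disulfide bonds of proteins in the lysosome, and its 3 contigs lay on both sides. The most abundant, contig_4804, had 482 against 2184 reads and was 4.85-fold higher in the semi-engorged library (4.40 to 5.37), contig_15920 had 261 against 470 reads, and contig_8318 had 404 against 144 and a ratio of 2.62 (2.16 to 3.19). The call of contig_8318 was lost with the median ratio set to 0 (log2 fold 0.93). Acid lipase, which splits cholesteryl esters and triglycerides, had 2 contigs, both higher in the semi-engorged library. These were contig_27796, with 73 against 212 reads and a lizard protein as best match, and contig_48366, with 2 against 263, a ratio of 141 (38.6 to 1169). The lysosomal trafficking regulator, a very large cytosolic protein that in mammals sets the size of lysosomes, was spread over 4 contigs of 1 best match. They had log2 folds of 0.80 to 1.17 and 578 against 178 reads together, a ratio of 3.03 (2.56 to 3.61).

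The word for glucosylceramide found no glucosylceramidase: all 4 contigs are galactosyltransferases that build on this lipid in the Golgi apparatus. By reads First_Contig4 and contig_7339 led them, with 1057 against 839 and 959 against 881. Per length contig_18888 (159 against 116 reads) was above both, at 7.61 and 5.95 RPKM. In contrast, contig_25823 had 14 against 215 reads, 16.4-fold higher in the semi-engorged library (9.59 to 30.6). No member was named palmitoyl-protein thioesterase or saposin alone. Of the 93 members 4 were not tested, with 13 to 16 reads over both libraries: contig_53936 (arylsulfatase b), contig_25760 (lysosomal alpha-mannosidase), contig_35867 (hexosaminidase) and contig_46948 (beta-mannosidase). The median length of the members was 854 bases (range 307 to 9858), beside 837 for all described contigs. Their median level was 2.81 engorged RPKM and 3.78 semi-engorged RPKM, beside 2.27 and 2.42 for all described contigs.

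Contigs that name the same protein mostly lay on the same side. Of 61 proteins with tested contigs, 17 had 2 or more, 45 contigs in all, and in 13 of the 17 all log2 folds had 1 sign. The other 4 were an arylsulfatase B, the acid phosphatase of Haemaphysalis longicornis, a beta-galactosidase and a hexosaminidase. Contigs of 1 protein can be pieces or close copies of each other, and the counting could divide reads between them, so they are not separate measurements. Contig number also moved with the fold in the whole assembly: tested contigs numbered below 10000 had a median log2 fold of 0.51, and those from 40000 to 49999 a median of -0.42. The members in these ranges had medians of 0.13 (28 tested) and -1.03 (9 tested). Below 10000, 32.4% of all tested contigs were called for the engorged stage and 10.9% for the semi-engorged stage, beside 10 and 6 members. From 40000 to 49999 the shares were 0.44% and 22.3%, beside 0 and 5 members. The contigs of the ratios of 106 and 141, contig_47797 and contig_48366, lie in the latter range. The part of contig number in the members' folds was not tested.

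Other genes of the pathway, found by 6 word lists that leave out the members, were counted beside them. Of all tested contigs, 13.0% were called for the engorged stage and 15.5% for the semi-engorged stage. Of 16 tested lysosomal protease contigs, 7 (43.75%) were called for the engorged stage and 4 (25%) for the semi-engorged stage. Their median log2 fold was 0.85. Cathepsin L-like contig_731 had 43640 against 9411 reads and a log2 fold of 2.11, and the tick legumain contig_32007 had 27 against 336. Legumains lay on both sides, and First_Contig513 of a tick salivary legumain had 671 against 31 reads. Contigs of the list for the vacuolar proton pump, which acidifies the lysosome, counted 4 (26.7%) and 0 of 15 with a median of 0.29. They include contig_12298, described as a factor for assembly of the pump rather than a subunit, with 1352 against 1444 reads. The pump contig with most reads, contig_2226 of subunit A, had 10255 against 6885 and a log2 fold of 0.47. Per length contig_7276 of subunit F was higher, at 132 and 107 RPKM beside 69.6 and 50.1. Other membrane proteins counted 5 (38.5%) and 0 of 13 with a median of 0.086. Of the 14 contigs 12 are tetraspanins, many of which lie outside the lysosome. Cystinosin, the cystine exporter of the lysosome (contig_4369), had 5590 against 747 reads and a log2 fold of 2.72, and mucolipin, a cation channel (contig_43325), was low at 10 against 5.

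Delivery and sorting proteins counted 8 (21.6%) and 3 (8.11%) of 37 with a median of 0.27. A cytosolic sorting protein described as gga2/tom1 (contig_7028), of a family that in mammals recruits mannose-6-phosphate receptors at the Golgi apparatus, had 8315 against 2147 reads and a log2 fold of 1.83. The retromer subunit vps35 (contig_1700), part of the coat that returns sorting receptors from endosomes, had 5808 against 5362 reads and a log2 fold of 0.016. The list also holds signalling and other adaptors and a Rab27 contig that its words matched. The largest fold of the list, 1.99, was that of an mp1 adaptor (contig_8471, 2361 against 516 reads), matched by the word adaptor. LDL receptor adaptors (contig_14006 and contig_16561) were also among the engorged calls. Pacsin adaptors (contig_5450 and contig_1424) were among the semi-engorged calls, so these counts are not of sorting proteins alone. Other hydrolases counted 3 (15.8%) and 4 (21.1%) of 19 with a median of 0.58. The words for this list also caught phospholipases, among them the contig of the largest fold (contig_2679, 34307 against 4756 reads). Within it an acid ceramidase (contig_7468), which splits ceramide, had 670 against 251 reads and a log2 fold of 1.16, and a contig named only ceramidase (contig_16319) had 962 against 3451. Nutrient sensing counted 0 and 0 of 7 with a median of 0.23. In it the microphthalmia-associated transcription factor (contig_2481), of the family that in mammals switches on lysosomal genes, had 2824 against 1379 reads and a log2 fold of 0.91.

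**Figure D5:**
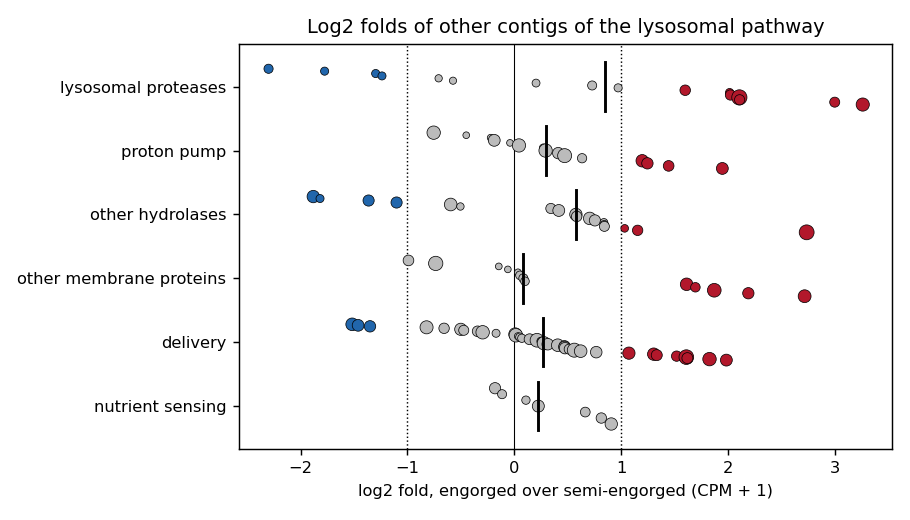
Log2 fold of engorged over semi-engorged CPM + 1 (x axis) for tested contigs of the 6 other lists of the pathway, with larger points for more reads, a bar at each median and dotted lines at the call of 1. Lysosomal proteases span both sides of the call with a median of 0.85, and no proton pump or nutrient sensing contig lies left of -1.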

How the data were processed

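For every contig the authors deposited its read count in each library and its RPKM, per the file headers. CASAVA 1.8, TopHat and Cufflinks are named, with no role, in the submitters' processing notes; for the assembler, the annotation search and the counting of reads nothing is stated in the labels or headers. Contig lengths worked out from counts and RPKM were whole numbers to within 0.000232 bases. The members, lists and tests were chosen with earlier results of these data known. Library totals scaled the counts, with a pseudocount of 1 CPM. A count of 0 allows up to 3 reads, which is 0.0518 CPM (engorged) or 0.0555 CPM (semi-engorged). Named contigs are the 3 most abundant of each role class and the called members of 100 or more reads where higher (up to 30); others named were chosen after their values were seen. Alternative scalings were edgeR 4.0.16 TMM factors and the median ratio set to 0 over contigs that have 100 reads in each library. A further scaling took totals without contigs that ranked among the 50 most abundant of either library. Other alternatives were pseudocounts, filters, RPKM, a log2 fold of 2, 1 contig per description and shorter lists. The calculations (Python 3.11.15, scipy 1.17.1) were tested on simulated counts. The reads carry no molecular identifiers, and no p-value was computed because each stage has 1 library.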

Additional observations from a re-analysis of the deposited data

How the results depend on the processing

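No paired analysis was possible because each stage has 1 library. The 13 members higher in the engorged library became 22 with totals without the 50 most abundant contigs of either library, 22 with a pseudocount of 0.1 CPM and 8 with 10 CPM. They became 6 at a log2 fold of 2, 7 with 1 contig per identical description (47 tested) and 23 without a pseudocount, where a count of 0 was replaced by 3 reads. The 22 higher in the semi-engorged library became 30 with a pseudocount of 0.1 CPM, 6 with 10 CPM and 10 at a log2 fold of 2. They became 15 with 1 contig per identical description and 30 without a pseudocount. With the median ratio set to 0 the counts were 11 for the engorged library and 29 for the semi-engorged library. For the 6 other lists of the pathway, 27 contigs higher in the engorged library became 13 with 10 CPM and 9 at a log2 fold of 2, and 11 higher in the semi-engorged library became 3 and 1. The ratio of the members' shares, 3.84, was 3.26 with the median ratio set to 0 and 1.501 with RPKM. With totals without the 50 most abundant contigs of either library the ratio was 4.48. It was 4.55 with 1 contig per description, 3.92 without the isomerase and 4.03 without members placed outside the lysosome. Without contig_203 it was 1.73, and without the 3 most abundant members 0.744. The members' median stayed below 0 in all settings (-0.39 to -0.035). Of 31 called contigs among the named, 0 changed sign and 5 (contig_13636, contig_24618, contig_309, contig_5559 and contig_8318) lost the call in at least 1 of 4 other scalings. Of the named contigs that were not called, 4 (contig_13409, contig_15003, contig_15920 and contig_241) gained the call in at least 1 of them and 3 near 0 (First_Contig4, contig_12673 and contig_7339) changed sign. The median ratio setting removes a shift of 0.23 (log2). The last choices of members and the zero setting were added after seeing the data; the causes were not tested. With the added 1 a call needs at least 1 CPM in the higher library; of 20 members with a mean below 1 CPM, 16 were tested and 2 were called.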
